A study of Mus musculus with 30 samples.

Results

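The genes described here encode potassium, sodium and chloride channels, their accessory subunits and 3 noncoding RNAs that carry a channel symbol, measured in cultured cells whose labels give mouse leg muscle as the source. Members were all genes with a probe set assigned to a single gene whose symbol begins with Kcn, Clcn or Scn (Scn followed by a number and a or b), which gave 102 of 18193 named genes. Cultures were sampled at 0, 4, 12, 24 and 48 h with 3 replicates per hour. Each replicate number of an hour has an array of both chips, A and B, of an Affymetrix expression set, which gave 30 arrays. The sample titles do not say that the same RNA was used on both chips. The labels give no genotype, strain, age or treatment, and neither the event at 0 h nor the medium. They also do not say that replicates were separate cultures, so the p-values rest on a spread among arrays that could be technical.

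Ion channels set the resting potential and the excitability of a muscle cell. Voltage-gated sodium channels, built from a pore-forming alpha and smaller beta subunits, start the action potential, and voltage-gated potassium channels end it. Inward rectifier and 2-pore potassium channels hold the resting potential, and in mature muscle the chloride channel Clcn1 carries most of the resting chloride conductance. In human myoblasts, hyperpolarisation through Kcnh1 and Kcnj2 channels is known to precede fusion into myotubes.

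All 8 muscle markers examined (Myog, Myod1, Des, Chrna1, Acta1, Ckm, Myh3 and Ttn) were above background. So were 85.8% of all named genes, so this count says little about the type of cell. Replicate 3 was set apart from the other two at every hour. On both chips each of the 5 arrays of replicate 3 deviated from its hour's mean most like the other arrays of replicate 3. The correlation of these deviations was 0.48 to 0.73 on A and 0.23 to 0.43 on B, and with the other replicates at most -0.27 on A and -0.07 on B. Results are therefore given over all arrays, with replicate 3 as a term in the model, and in replicates 1 and 2 alone. Every array had been scaled to a trimmed mean intensity of 500.1 to 500.2. The number of arrays limits the precision.

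Each gene was read from its brightest probe set, on the A chip where it had one there, which put 78 genes on A and 24 on B. Background was the 20th percentile of a chip, an intensity of 29.4 on A and 54.4 on B. On the probe set chosen, 71 of the 102 genes (69.6%) had a mean over the 15 arrays above background, against 15603 of the 18193 named genes (85.8%). A further 8 genes read on A were below background there but above it through a B probe set, so that 79 of 102 had some probe set above background. The mark on B may be the easier to pass. Probe sets present on both chips read a median of 5.29 times higher on B, while its background was 54.4 against 29.4. The share of all genes with some probe set above background was not taken. Scn9a (29.86), a sodium channel of sensory neurons, lay just inside the mark and the potassium channel subunit gene Kcnab2 (29.37) just outside it. Only 37 genes were above background on all 15 arrays. The mean intensity exceeded 1000 in 3 genes, lay between 300 and 1000 in 12, between 100 and 300 in 20, and was at most 100 in 67. Brightness depends on the probes, so these levels rank probe sets and not transcripts.

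The classes are given first by the probe set chosen. Of 31 voltage-gated potassium channel alpha subunits 24 were above background, as were 9 of 15 potassium channel accessory subunits and 6 of 8 channels gated by calcium or sodium. The inward rectifiers had 10 of 15 above background and the 2-pore potassium channels 8 of 12. All 3 sodium channel beta subunits with a probe set were above background, and 3 of 8 alpha subunits were (Scn8a, Scn9a and Scn11a). Another 4 alpha subunits were above background through a B probe set, at means of 100.8 for Scn1a, 113.9 for Scn2a, 79.2 for Scn3a and 281.0 for Scn7a, which makes 7 of 8. That count mixes the marks of both chips, of which the mark on B may be the easier to pass. The Scn7a probe set was tested and changed by 0.05 (SE 0.35) at 48 h. Of 7 members of the chloride channel family 6 were above background, as were 2 of the 3 noncoding RNAs.

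**Figure D1:**
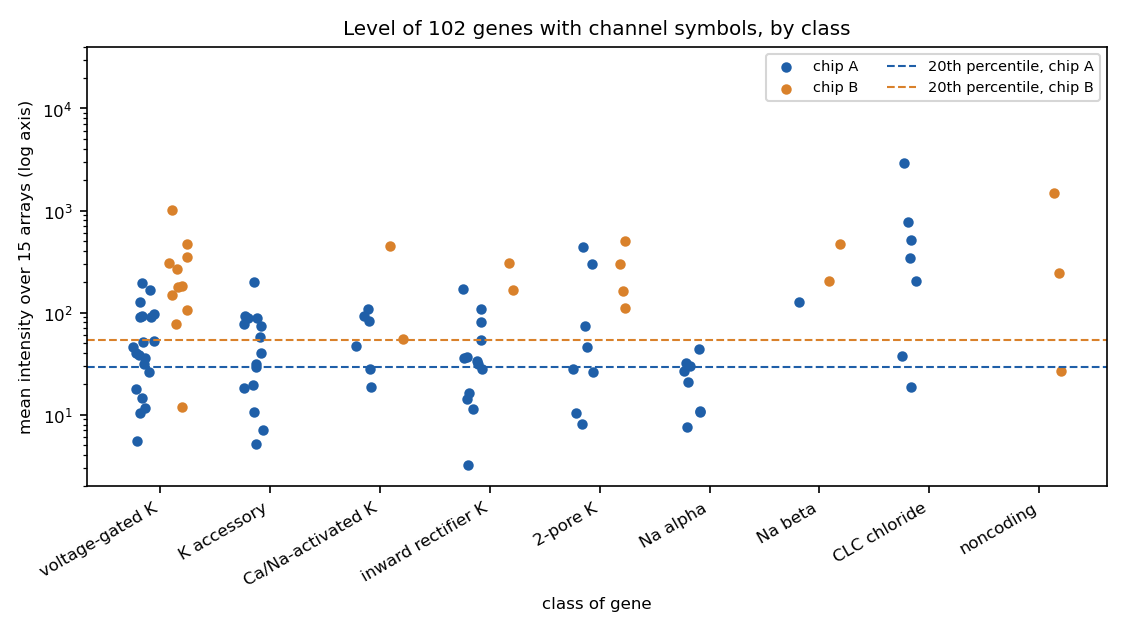
Mean intensity of the 102 genes over 15 arrays, on a log axis, by class, each gene at the probe set chosen for it, with each chip's background as a dashed line. Of the sodium channel alpha subunits 3 of 8 lie above background at that probe set (7 of 8 have some probe set above the background of its own chip), and the 3 beta subunits all lie above it.

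Of 11 measured genes with a known role in the excitability or fusion of muscle cells, 4 were above background and 0 were tested through the probe set the rule chose, though Kcnj11 and Kcnh1 had a tested probe set on B. Clcn1 had a mean of 18.6, with a lowest value of 9.6, a median of 17.2 and a highest of 35.3, and was above background on 2 of 15 arrays. Kcnj2, the inward rectifier named above, had a mean of 3.21 and was above background on 0 arrays. The fusion-associated Kcnh1 had 221.1, 84.7 and 87.8 at 48 h, against 99.0, 75.3 and 71.3 at 0 h. A single array at 48 h was high, and the other 2 lay within the range at 0 h. The B probe set of Kcnh1 changed by 0.15 (SE 0.24) at 48 h, with an adjusted p of 0.86 in limma. Kcnma1, the large-conductance calcium-activated channel, had a mean of 92.6 and Kcnj12, another inward rectifier of muscle, one of 80.7. Kcnn3 (18.9), Kcnc4 (11.6), Kcne3 (10.6), Kcna5 (10.3) and Kcnk5 (28.2) were not above background.

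Kcnj11, the pore of the ATP-sensitive potassium channel, was read differently by its probe sets. The probe set on A had a mean of 53.8, and the brighter one on B had 7909.1, 8657.4 and 9196.4 at 48 h, against 10243.0, 14639.6 and 16495.9 at 0 h. On B all arrays at 48 h lay below all at 0 h, with a log2 change of -0.65 (SE 0.20, limma adjusted p = 0.15). With replicate 3 as a term the adjusted p was 0.0427. The 100 probe sets present on both chips had B intensities 4.36 to 6.35 times those on A (median 5.29), so levels were not compared between chips.

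Tests were limited to the upper 60% of probe sets of each chip by mean log2 value, which kept 29 of the 102 genes (28.4%), against 11772 of all 18193 genes (64.7%). They were 10 voltage-gated alpha subunits, 5 chloride channel family members, 4 2-pore channels, 3 inward rectifiers, 3 sodium channel beta subunits, 2 noncoding RNAs, 1 accessory subunit and 1 sodium-activated channel, and no sodium channel alpha subunit. A further 42 genes were above background with a probe set too dim to be tested, with means of 29.9 to 167.5, and 31 were not above background. Of these untested genes 12 had a brighter probe set on B that was tested. In the fit with hour alone 0 of these passed over all hours, at 24 h or at 48 h. With replicate 3 as a term Kcnj11 passed at 48 h, as given above. Changes are on the log2(intensity + 29) scale on A and log2(intensity + 54) on B, which understates those of dim genes. All comparisons with 0 h share the 0 h arrays. Probe sets of the same gene often differed: of 14 member genes with several tested probe sets, 6 had the same sign of change at 48 h in all of them.

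Over all hours 2 of the 29 genes differed between hours, Scn3b and Kcnk2, beside 2.06% of all tested genes (limma's moderated F test, Benjamini-Hochberg adjusted p under 0.05). Against 0 h the count was 0 at 4 h and 0 at 12 h, where 0% of all genes passed. It was 0 at 24 h (2.6% of all genes) and 1 at 48 h (2.08% of all genes), where Scn3b was higher (1.33% of all genes were higher). Unadjusted p-values under 0.05 were held by 1 gene at 4 h (4.41% of all genes), 1 at 12 h (6.74%), 5 at 24 h (16.2%), 5 at 48 h (14.6%) and 6 over all hours (13.6%). With replicate 3 as a term, 3 genes differed over all hours (13% of all genes), 0 at 4 h (0%), 0 at 12 h (0.977%), 4 at 24 h (11.8%) and 2 at 48 h (9.17%). The 4 at 24 h were Scn3b and Kcnk2, which were higher (5.54% of all genes), and Kcnf1 and Kcnmb4, which were lower (6.24%). In replicates 1 and 2 alone, where 32 members were tested, the counts were 3 over all hours (16.3% of all genes), 0 at 4 h (0.153%), 0 at 12 h (3.47%), 4 at 24 h (13.7%) and 3 at 48 h (12%).

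As a group the 29 genes stayed near 0 h. Their median log2 change was -0.06 at 4 h, 0.09 at 12 h, -0.08 at 24 h and 0.05 at 48 h, beside medians of -0.03, -0.01, -0.05 and -0.03 over all tested genes. Changes ran from -0.80 for Scn2b to 1.29 for Scn3b at 48 h, and 20 of 29 lay within 0.5. At 24 h they ran from -0.98 for Kcnf1 to 1.16 for Kcnk2, with 22 of 29 within 0.5. At 48 h 4 genes (Clcn4, Kcnk2, Kcnk6 and Scn3b) had all arrays above those at 0 h, as did 8.28% of all genes, and 3 (Kcnh3, Kcnmb4 and Scn2b) had all below, as did 10.1%. At 24 h 4 genes (Clcn4, Kcnk16, Kcnk2 and Scn3b) had all arrays above (9.69% of all genes) and 3 (Kcnc1, Kcnf1 and Kcnmb4) all below (11.3%). At 12 h 3 genes (Kcnk6, Kcnt1 and Scn4b) had all arrays above (6.71% of all genes) and 2 (Kcnmb4 and Kcnv2) all below (5.78%). At 4 h 0 had all arrays above (3.9%) and 4 (Kcnh8, Kcnt1, Kcnv2 and Scn2b) all below (5.55%).

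**Figure D2:**
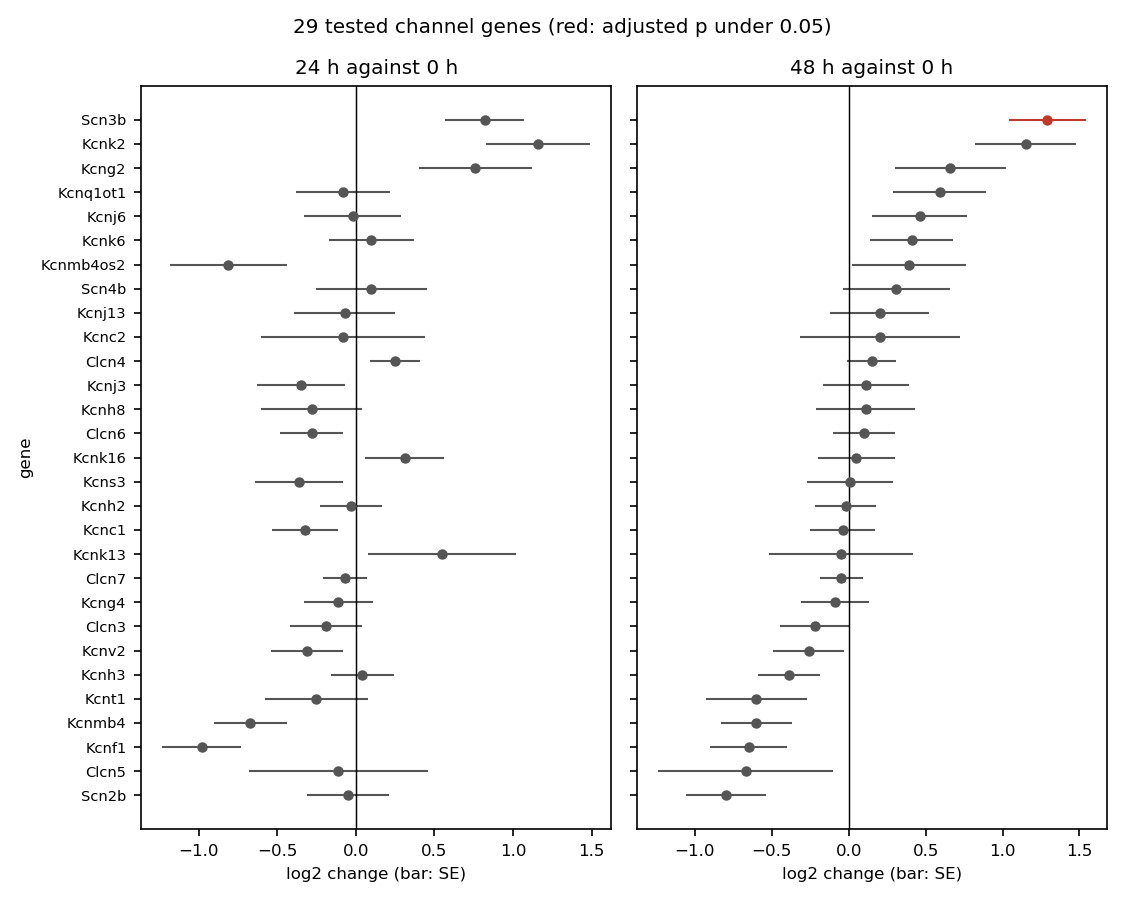
Log2 change of the 29 tested genes at 24 h and 48 h against 0 h, with standard errors, over all 15 arrays of a chip. Most points lie within 0.5 of 0, with Scn3b (1.29 at 48 h) and Kcnk2 (1.16 at 24 h) the farthest above 0 and Kcnf1 (-0.98 at 24 h) the farthest below.

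Scn3b, a beta subunit that modifies the gating and surface level of voltage-gated sodium channels, was higher late in the series. Its intensity was 320.5, 273.8 and 158.8 at 48 h and 175.7, 169.8 and 154.6 at 24 h, against 56.3, 75.9 and 122.1 at 0 h. At both late hours every array lay above every array at 0 h, while 4 h (69.1, 75.9 and 45.6) and 12 h (80.5, 81.4 and 60.7) lay in or below the 0 h range. The mean was 251.0 ± 83.2 at 48 h and 84.8 ± 33.8 at 0 h (SD, n = 3 each), a log2 change of 1.29 (SE 0.25), or 2.45-fold, with a limma adjusted p of 0.0187. At 24 h the change was 0.82 (SE 0.25, limma adjusted p = 0.108). With replicate 3 as a term the adjusted p was 0.00265 at 48 h and 0.0319 at 24 h. In replicates 1 and 2 alone the log2 change was 1.78 at 48 h (limma adjusted p = 0.000158), and in replicate 3 alone, with no test, it was 0.31. The call at 48 h was lost when replicate 1 or 2 was left out at 0 h (adjusted p = 0.0886 and 0.105) or at 48 h (0.11 and 0.0984), and when only the arrays of the 2 hours were fitted (0.123). A dimmer, untested probe set of Scn3b had a mean over all arrays below background (23.2). It averaged 52.9 at 48 h, which is above background, and 7.6 at 0 h. A change in the number of cells of a type and a change in RNA per cell cannot be told apart in such bulk samples.

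Kcnk2, a 2-pore potassium channel opened by membrane stretch and lipids that contributes to the resting potential, was the other gene that differed between hours (limma adjusted p = 0.0478). It had 418.5, 518.8 and 441.6 at 48 h and 502.2, 448.6 and 428.8 at 24 h, against 138.2, 160.5 and 301.5 at 0 h. The late arrays all lay above those at 0 h, and replicate 3 was the highest array at 0, 4 and 12 h. The mean was 459.6 ± 52.5 at 48 h and 200.1 ± 88.5 at 0 h (SD, n = 3 each), a log2 change of 1.15 (SE 0.33), which did not pass on its own (limma adjusted p = 0.101). The 24 h change was 1.16 (SE 0.33, limma adjusted p = 0.086). It passed with replicate 3 as a term, at an adjusted p of 0.0059 for 48 h and 0.00453 for 24 h. In replicates 1 and 2 alone the log2 change at 48 h was 1.48 (limma adjusted p = 0.000188), and in replicate 3 alone, with no test, it was 0.51. The difference over all hours passed only in 3 of 15 fits that left out an array, those without replicate 3 at 0, 4 or 12 h, with adjusted p-values of 0.0241, 0.0109 and 0.0237. It ranged up to 0.142 in the other 12, and the call was also lost under quantile normalization and under median centring.

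**Figure D3:**
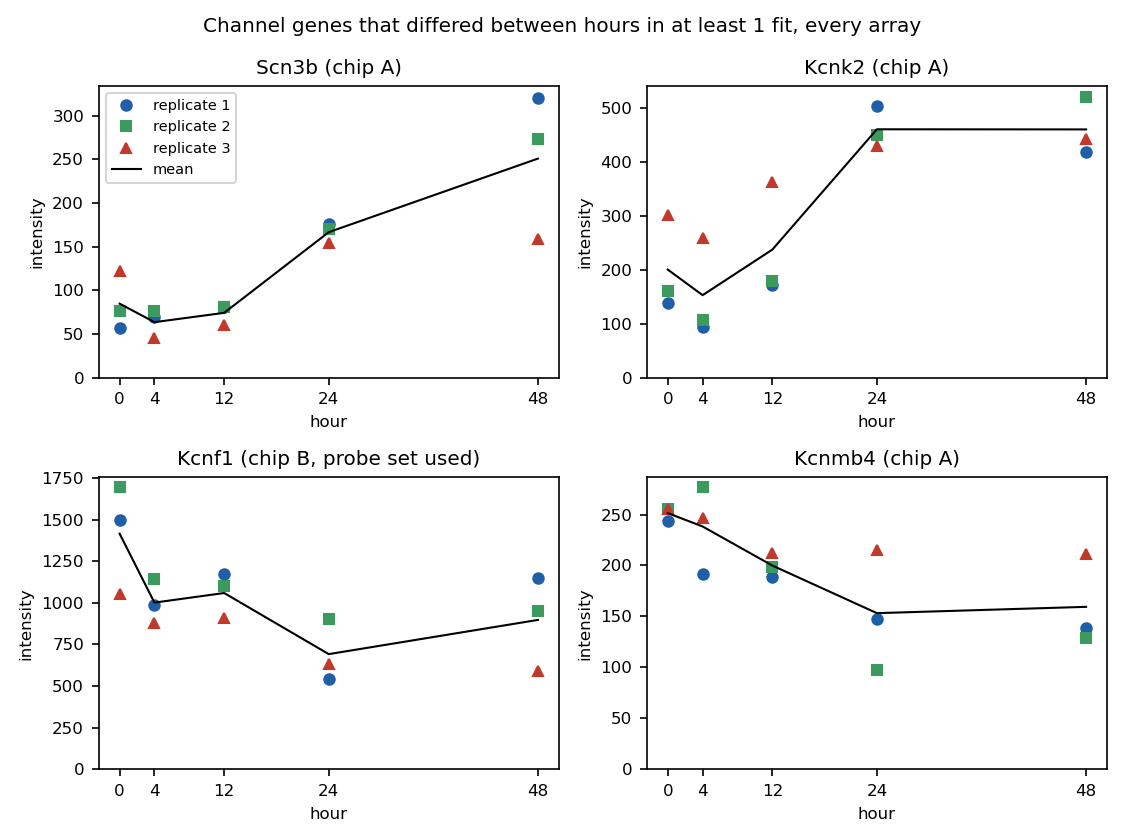
Intensity of Scn3b, Kcnk2, Kcnf1 and Kcnmb4 on each array by hour, with the mean of the 3 arrays. Scn3b and Kcnk2 have all arrays at 24 and 48 h above those at 0 h, and Kcnmb4 all arrays at 24 and 48 h below those at 0 h.

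All 4 promoter windows of Kcnk2 are printed, since the gene has several starts, with 250 bases before to 50 after each (RefSeq, GRCm38.p6, chromosome 1, minus strand). Capitals mark CANNTG, the E-box that myogenic factors such as Myod1 bind, searched on both strands, for which the motif reads the same. CAGCTG, a form of CANNTG, is in the second and the third window, 3 other CANNTG are in the first, and the fourth holds none.
Kcnk2 chr1:189402224-189402523: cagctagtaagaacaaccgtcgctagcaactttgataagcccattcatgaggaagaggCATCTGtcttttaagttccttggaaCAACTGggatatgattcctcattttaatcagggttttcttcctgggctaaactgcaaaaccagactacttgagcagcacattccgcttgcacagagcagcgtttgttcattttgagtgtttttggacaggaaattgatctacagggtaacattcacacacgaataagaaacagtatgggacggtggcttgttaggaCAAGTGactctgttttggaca
Kcnk2 chr1:189344143-189344442: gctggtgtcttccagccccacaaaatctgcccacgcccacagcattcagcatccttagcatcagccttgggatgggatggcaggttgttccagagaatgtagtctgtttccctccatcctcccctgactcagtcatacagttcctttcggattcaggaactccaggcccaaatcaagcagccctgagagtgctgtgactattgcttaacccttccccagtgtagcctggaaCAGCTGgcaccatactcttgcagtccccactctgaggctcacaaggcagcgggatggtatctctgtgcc
Kcnk2 chr1:189343658-189343957: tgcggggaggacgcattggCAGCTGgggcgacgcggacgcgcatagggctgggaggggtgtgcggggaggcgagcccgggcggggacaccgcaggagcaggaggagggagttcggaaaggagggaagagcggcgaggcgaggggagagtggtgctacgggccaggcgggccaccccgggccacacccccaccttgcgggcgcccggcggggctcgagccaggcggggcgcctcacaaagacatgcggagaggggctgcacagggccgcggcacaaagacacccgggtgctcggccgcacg
Kcnk2 chr1:189343304-189343603: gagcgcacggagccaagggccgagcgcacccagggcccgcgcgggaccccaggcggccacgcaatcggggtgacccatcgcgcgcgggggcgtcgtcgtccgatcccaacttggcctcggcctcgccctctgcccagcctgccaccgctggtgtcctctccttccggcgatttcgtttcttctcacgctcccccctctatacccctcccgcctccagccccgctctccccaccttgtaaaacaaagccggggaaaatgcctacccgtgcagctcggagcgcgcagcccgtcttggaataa
CAGCTG is found in 16.3% of 32851 promoter windows of this length and in 27 of the 111 windows (24.3%) of the 80 member genes with an entry. CANNTG is found in 72.3% of all windows and in 84 of the 111 (75.7%). A match describes the letters and is not a binding site.

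Kcnf1, a voltage-gated alpha subunit that forms no channel alone but modifies others, was lower at 24 h in the fits that took replicate 3 into account. It had 539.6, 901.7 and 634.3 at 24 h, against 1499.9, 1697.0 and 1053.9 at 0 h, so that all 24 h arrays lay below those at 0 h. The log2 change was -0.98 (SE 0.25, limma adjusted p = 0.081), with an adjusted p of 0.00633 with replicate 3 as a term and 0.0123 in replicates 1 and 2 alone. At 48 h it had 1150.5, 951.4 and 591.3, which overlapped the 0 h arrays, and the change was -0.65 (SE 0.25, limma adjusted p = 0.249). A second probe set had 520.6, 437.5 and 205.6 at 24 h, against 1283.0, 1356.2 and 962.9 at 0 h. It changed by -1.57 (SE 0.30) with a limma adjusted p of 0.0204 over all arrays, and was the only one of 64 tested member probe sets to pass at 24 h. The window at the start of Kcnf1 (RefSeq, GRCm38.p6, minus strand) holds no CANNTG, so no base is in capitals.
Kcnf1 chr12:17176839-17177138: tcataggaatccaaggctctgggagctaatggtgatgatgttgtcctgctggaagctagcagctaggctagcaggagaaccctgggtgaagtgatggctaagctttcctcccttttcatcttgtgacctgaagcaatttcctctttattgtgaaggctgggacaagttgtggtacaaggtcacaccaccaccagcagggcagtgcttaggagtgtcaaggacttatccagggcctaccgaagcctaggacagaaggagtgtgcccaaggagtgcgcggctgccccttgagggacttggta

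Kcnmb4, the beta subunit that slows calcium-activated potassium channels, was the other gene lower at 24 h once replicate 3 was taken into account. It had 147.5, 97.1 and 214.9 at 24 h, against 243.3, 255.9 and 255.1 at 0 h. The 0 h arrays were close together and all above those at 24 h, and replicate 3 was the highest at 24 h. The log2 change was -0.67 (SE 0.23, limma adjusted p = 0.141), with an adjusted p of 0.0287 with replicate 3 as a term and 0.0171 in replicates 1 and 2 alone. At 48 h the arrays were 138.1, 129.0 and 211.0, again below those at 0 h, and the change of -0.60 (SE 0.23) had an adjusted p of 0.216 in limma, 0.0594 with replicate 3 as a term and 0.0412 in replicates 1 and 2 alone, where it was -0.78.

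The other sodium channel beta subunits did not pass. Scn2b had 156.3, 446.3 and 364.6 at 48 h, against 518.0, 537.9 and 626.2 at 0 h, and all 48 h arrays lay below those at 0 h. Its log2 change was -0.80 (SE 0.26, limma adjusted p = 0.161), and a second probe set had 0.08. Scn4b changed by 0.31 (SE 0.35, limma adjusted p = 0.773).

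The chloride channel family, most of whose tested members are exchangers of endosomes and lysosomes, held 0 calls of 5 tested, where 2.06% of all genes were called over all hours, so the count says little about the family. Clcn7, the lysosomal member, averaged 330.3 ± 21.9 at 48 h and 344.0 ± 21.8 at 0 h (SD, n = 3 each), a log2 change of -0.05 (SE 0.14). The tested B probe set of Clcn7 changed by -0.34 (SE 0.27) at 48 h. Clcn3 changed by -0.22 (SE 0.23) and Clcn6 by 0.10 (SE 0.20). Other A probe sets of Clcn3 changed by -0.35 to 0.20, and its B probe set by 1.12 (SE 0.45, limma adjusted p = 0.279). The B probe set of Clcn6 changed by -0.18 (SE 0.26). Clcn4 had 496.5, 502.2 and 487.3 at 48 h, against 482.5, 396.1 and 454.1 at 0 h, all above, with a change of 0.15 (SE 0.16, limma adjusted p = 0.739). Clcn5 was variable, with 1296.3, 4339.7 and 1290.5 at 48 h, against 2180.1, 4274.1 and 3188.8 at 0 h. Its change was -0.67 (SE 0.57), and a second A probe set had 0.23.

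Among the remaining voltage-gated, 2-pore and inward rectifier channels no change passed over all arrays. Kcng2, which like Kcnf1 forms no channel alone, had 292.4, 517.1 and 399.0 at 48 h, against 138.9, 492.8 and 161.2 at 0 h, and the groups overlapped (0.66, SE 0.36, limma adjusted p = 0.461). Kcnk6 was 346.8, 352.4 and 495.3 at 12 h, against 257.3, 179.2 and 251.9 at 0 h, with no overlap and an adjusted p of 0.718 in limma. Kcnh8 was 128.4, 73.7 and 79.7 at 4 h, against 262.2, 139.0 and 191.6 at 0 h, all below, with an adjusted p of 0.906 in limma. The inward rectifier Kcnj6 changed by 0.46 (SE 0.31) and the sodium-activated Kcnt1 by -0.60 (SE 0.33) at 48 h. Kcnk16, a 2-pore channel known from the pancreas, changed by 0.31 at 24 h and by 0.05 (SE 0.25) at 48 h. Of the voltage-gated alpha subunits, Kcnh2, which carries a repolarising current in heart, changed by -0.02 (SE 0.20) at 48 h, Kcng4 by -0.09 (SE 0.22), Kcns3 by 0.01 (SE 0.28) and Kcnv2 by -0.26 (SE 0.23). Kcnh3 averaged 99.0 ± 14.6 at 48 h and 138.8 ± 26.5 at 0 h (SD, n = 3 each), all 48 h arrays lying below those at 0 h, with an adjusted p of 0.407 in limma. Its tested B probe sets changed by -0.11 (SE 0.16) and 0.05 (SE 0.17) at 48 h. The fast channel Kcnc1 averaged 162.2 ± 17.0 at 24 h and 208.7 ± 14.4 at 0 h (SD, n = 3 each), a log2 change of -0.32, and was at -0.04 by 48 h. The inward rectifiers Kcnj3 and Kcnj13 changed by 0.11 (SE 0.28) and 0.20 (SE 0.32) at 48 h. Kcnmb4os2, a transcript of the strand opposite Kcnmb4, had 310.7, 323.7 and 310.1 at 48 h, against 312.4, 141.9 and 258.3 at 0 h, and the groups overlapped. The imprinted noncoding RNA Kcnq1ot1 averaged 1861 ± 330 at 48 h and 1248 ± 377 at 0 h (SD, n = 3 each), a log2 change of 0.59 (limma adjusted p = 0.425). A second Kcnq1ot1 probe set changed by 1.25 at 48 h (limma adjusted p = 0.151, and 0.0318 with replicate 3 as a term).

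Some single genes were apart in replicate 3 at every hour. Kcnk13, a 2-pore channel, had 156.8 to 313.0 in replicate 3 over the 5 hours, against 419.0 to 863.5 in replicates 1 and 2. Kcnc2, a fast voltage-gated alpha subunit, had 33.3 to 122.6 in replicate 3, against 137.6 to 396.6 in replicates 1 and 2. These were the 2 of 29 tested genes with replicate 3 below both others at all 5 hours, as were 10.4% of all tested genes, and 0 had it above both at all 5, as had 11.4% of all tested genes. Kcnn4, untested and picked out after its values were seen, had 331.4, 253.7, 164.5, 155.5 and 184.0 in replicate 3 at 0, 4, 12, 24 and 48 h, against 14.4 to 163.7 in the others. No difference of Kcnk13 or Kcnc2 between hours passed over all arrays.

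**Figure D4:**
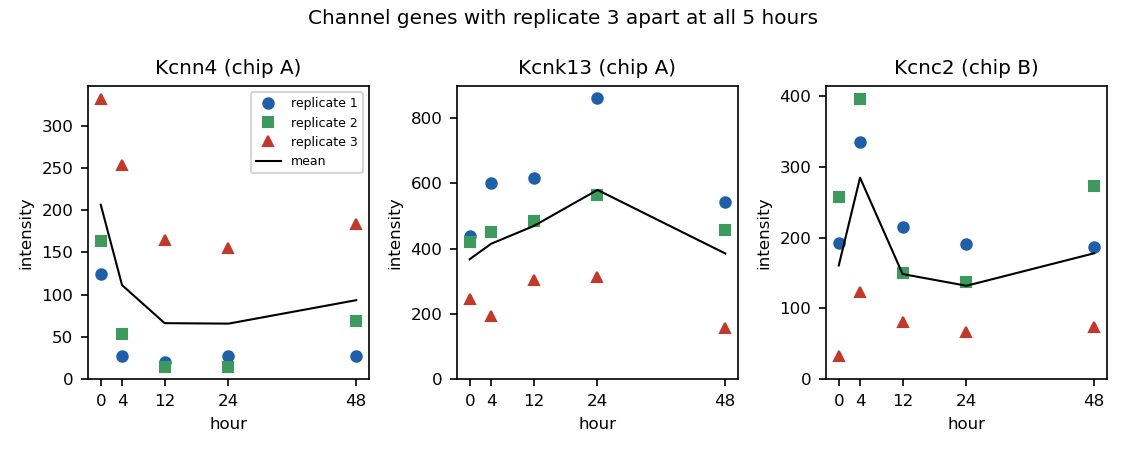
Intensity of Kcnk13, Kcnc2 and Kcnn4 by hour, with replicate 3 marked apart from replicates 1 and 2. Replicate 3 lies below the others at every hour in Kcnk13 and Kcnc2 and above them in Kcnn4.

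Genes that work with these channels were described from 2 lists. Of 21 channel partners 20 were measured, 18 were above background and 12 were tested, with a median log2 change of 0.22 at 48 h. Of the 12, 1 rose at 48 h (1.33% of all genes did), Cav3, the muscle caveolin, and 0 fell (0.756%). Cav3 had 3076.2, 2609.6 and 1432.7 at 48 h, against 498.2, 605.3 and 812.1 at 0 h, a log2 change of 1.80 (SE 0.34, limma adjusted p = 0.0165). Fgf13, a regulator of sodium channels, had 1017.3, 1206.6 and 320.7 at 48 h, against 484.7, 360.3 and 179.6 at 0 h. Replicate 3 was the lowest array at both hours and the groups overlapped, and the change of 1.15 (SE 0.54) had an adjusted p of 0.343 in limma and of 0.000542 with replicate 3 as a term.

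Of 24 genes for pumps, cotransporters, calcium channels and acetylcholine receptors 21 were measured, 20 were above background and 15 were tested, with a median log2 change of 0.08 at 48 h. Of the 15, 2 rose at 48 h (1.33% of all genes did), both subunits of the calcium channel that senses voltage for contraction, and 0 fell (0.756%). Cacna1s, its pore, had 917.6, 877.2 and 356.9 at 48 h, against 85.1, 102.6 and 282.7 at 0 h, a log2 change of 2.05 (SE 0.48, limma adjusted p = 0.0414). Cacnb1, its beta subunit, had 691.6, 628.6 and 405.9 at 48 h, against 218.2, 264.8 and 371.8 at 0 h, a log2 change of 0.94 (SE 0.22, limma adjusted p = 0.0405). In Cav3, Cacna1s and Cacnb1 replicate 3 was the lowest array at 48 h and the highest at 0 h.

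**Figure D5:**
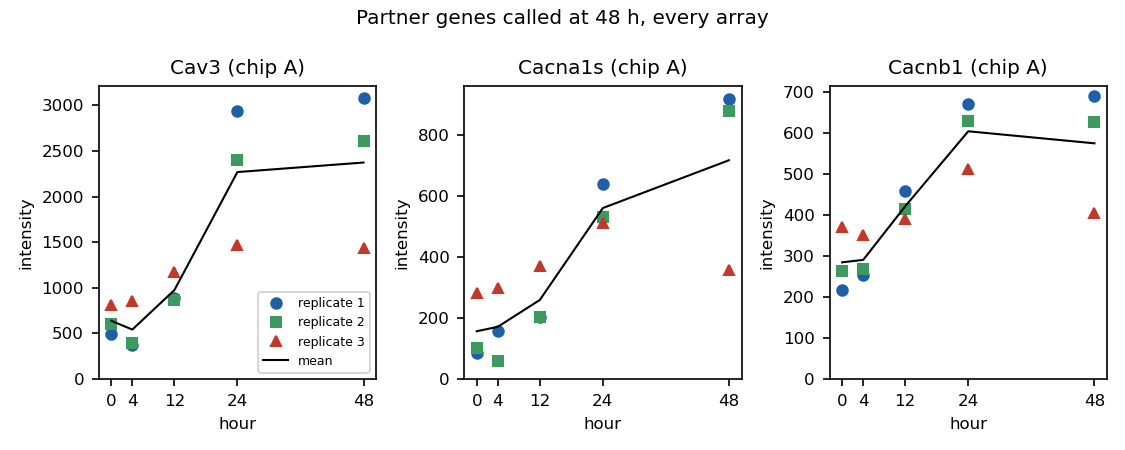
Intensity on each array by hour of partner and excitability genes, with replicate 3 marked apart. Cav3, Cacna1s and Cacnb1 have all arrays at 48 h above all at 0 h.

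Several of these channels are also genes of nerve, glia or vessel, so markers of other cells were read beside them. Of 9 neuron markers 7 were above background, 4 were tested and 0 passed at 48 h, with Snap25 (6.62) and Rbfox3 (9.86) below background. Their summed level was 845.9 to 2333.3 at 48 h and 989.7 to 2030.5 at 0 h. With replicate 3 as a term 1 of the 4 tested neuron markers differed over all hours (13% of all genes). The summed level of the 6 measured Schwann cell markers was 1827.7 to 2568.1 at 48 h and 1391.2 to 2090.9 at 0 h. Of these markers 5 were above background and 3 were tested. Erbb3, which muscle also expresses, rose by 1.07 (limma adjusted p = 0.0261). With replicate 3 as a term 1 of the 3 was higher and 1 lower at 48 h. Without that term 1 of the 3 differed over all hours (2.06% of all genes) and 1 was higher at 24 h (1.65%). The summed level of the Schwann cell markers was 2169.5 to 2464.3 at 12 h and 2615.4 to 3015.7 at 24 h. Both ranges lay wholly above that at 0 h. The 7 endothelial markers summed to 356.1 to 591.0 at 48 h and 298.9 to 362.8 at 0 h. Of the 7, 5 were above background, 2 were tested and 0 passed at 48 h, with Tie1 (1.99) and Vwf (2.67) below background. The 8 smooth muscle and pericyte markers summed to 9260.2 to 12633.2 at 48 h and 11631.2 to 16650.2 at 0 h, the 8 fibroblast markers to 2452.9 to 4635.9 at 48 h and 3342.5 to 4136.3 at 0 h, and the 7 macrophage markers to 563.4 to 787.9 at 48 h and 498.3 to 696.7 at 0 h. In these 3 lists 0 markers passed at 48 h over all arrays. Of the 4 tested smooth muscle and pericyte markers 1 differed over all hours (2.06% of all genes). At 24 h 1 was higher (1.65%). With replicate 3 as a term 3 of the 4 differed over all hours (13%) and 1 was lower at 48 h (4.97%). With that term 1 of the 3 tested fibroblast markers differed over all hours and 1 was higher at 48 h (4.2%). Of the 3 tested macrophage markers 0 differed over all hours in either fit. The 8 muscle markers, all tested, summed to 41557.8 to 68890.6 at 48 h and 46424.1 to 54373.3 at 0 h. Over all hours 2 of them differed (2.06% of all genes did), 2 were higher at 24 h (1.65%) and 1 at 48 h (1.33%), and 0 were lower at either hour. With replicate 3 as a term 5 muscle markers differed over all hours (13% of all genes), and at 48 h 3 were higher (4.2%) and 1 lower (4.97%). The part of other cells in the changes of Scn3b and Kcnk2 was not tested.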

How the data were processed

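RNA from the leg muscle cultures was measured on 15 A and 15 B arrays, 3 per hour. The deposited tables hold 1 linear intensity per probe set and array, made by the standard Affymetrix protocol per the labels. For the software, the probe summary and the detection calls nothing is given in the sources used here. The 2%-trimmed mean (control probe sets included) was 500.1 to 500.2 on every array, so no further scaling was applied, and such scaling hides a change in total RNA per cell.

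Genes were named from GEO's platform annotation with symbols checked against RefSeq (GRCm38.p6). On A 20380 probe sets had 1 gene, 691 several and 1555 none here, and on B 14661, 245 and 7605. Control probe sets were left out. Intensities were transformed as log2(intensity + pseudocount), with 29 on A and 54 on B. The upper 60% of probe sets were tested, 13575 on A and 13506 on B, in limma 3.58.1 (R 4.3.3; lmFit and eBayes with trend) with hour as the factor, each chip on its own. Tests were two-sided, adjusted by Benjamini-Hochberg within a chip, and called at 0.05. With 3 arrays against 3 an exact permutation test cannot go below 0.1. The fit was tested on simulated data.

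Named were the called genes, up to 4 genes above background per class with the smallest F test p, 11 measured genes known in muscle, genes called with replicate 3 as a term or in replicates 1 and 2, and called or top members of the partner lists. Kcnn4, Clcn2 and Kcnip3 are said to be picked out after their values were seen. Other tested genes, among them Clcn7, Kcnc1, Kcnc2, Kcnh2, Kcng4, Kcns3 and Kcnv2, are given outside these rules. Members and lists were chosen with earlier results of these data known. Alternatives were quantile normalization, median centring, pseudocounts, filters, the replicate block, replicate 3 as a term, replicates 1 and 2 alone, the 2 hours alone, no trend, array weights, another choice of probe set and leaving out each array.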

Additional observations from a re-analysis of the deposited data

How the results depend on the processing

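The counts of called channel genes depended on how replicate 3 was treated, on the filter and on the scaling. Over all hours the count was 2, and it was 1 under quantile normalization, median centring, a pseudocount of 0.5 times or of 1, no filter, and eBayes without trend, and 0 when only the upper 40% of probe sets were tested, which left out both Scn3b and Kcnk2. At 24 h the count was 0, against 5 with the replicate block (the 4 of the fit with replicate 3 as a term and Kcnk13), 4 with replicate 3 as a term, 4 in replicates 1 and 2 alone and 4 with array weights. At 48 h the count was 1, against 2 with the replicate block, 2 with replicate 3 as a term, 3 in replicates 1 and 2 alone, 3 with array weights, 0 in the upper 40% and 0 when only the arrays of the 2 hours were used, where the adjusted p of Scn3b was 0.123 (limma). Leaving out each array in turn gave 0 to 2 over all hours, 0 to 0 at 4 h, 0 to 0 at 12 h, 0 to 1 at 24 h and 0 to 2 at 48 h. The count over all hours was 0 without replicate 2 at 48 h. Apart from replicate 3, the replicate numbers were not taken to pair the arrays, since the lowest correlation of deviations was 0.04 for replicate 1 (median 0.36) and 0.12 for replicate 2 (median 0.36) on A, and 0.00 and 0.04 on B. On A 3, 3 and 5 of 5 arrays of replicates 1, 2 and 3, and on B 2, 2 and 5, correlated best with their own number. Over the alternatives, 650 values of named genes at 24 and 48 h stayed on the same side of the threshold. A call was lost in 2 and gained in 26. Leaving out an array entered this count only through the fits with the lowest and the highest change. The lost and gained calls named above are therefore only partly among these. Of the called values 0 reversed. Another 2 uncalled values at 48 h changed sign with a shift of at least the SE of the main fit. These were Clcn6, to -0.18 at its brightest tested probe set over both chips, and Kcnk13, to 0.45 with 1 array left out. Smaller changes of sign among uncalled values were counted among the 650. The causes were not tested. Low signal limits what these arrays can show, since 29 of the 102 genes were tested at the probe set chosen.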

Other observations

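Among genes too dim to be tested, 2 were picked out after their values were seen. Clcn2, a chloride channel of the plasma membrane, had 13.8, 14.5 and 5.5 at 48 h, against 45.0, 71.6 and 18.9 at 0 h, all below. Its mean over all arrays was above background, but the 48 h arrays were not. Kcnip3, a calcium-binding protein that partners with potassium channels, had 96.8, 100.8 and 36.6 at 12 h, against 15.7, 20.2 and 8.7 at 0 h, all above, and the 0 h arrays were below background. At 48 h Kcnip3 had 81.8, 29.1 and 18.6. Of the 12 genes whose A probe set was untested but whose B probe set was tested, 0 passed at 48 h over all arrays.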
